A study of Rattus norvegicus with 6 samples.

Results

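Circular RNAs whose deposited sequence is 1 unbroken stretch of the genome were taken from the circRNA catalogue of rat thalamus. A circle was a member when its full sequence was exactly as long as the distance between its ends in the deposited header, so that no stretch had been spliced out of it. This rule held for 770 of 32445 circRNAs (2.37%), and the other 31675 are called spliced circles. All groups were rat thalamus taken at 14 days. The CFA group has 3 libraries, from rats that received 50 µL of CFA (complete Freund's adjuvant, which provokes lasting joint inflammation) in both temporomandibular joints, the hinges of the jaw, and the control group has 3 libraries, from rats that received 50 µL of saline in the same way. The labels do not say whether each library came from a rat of its own, so the p-values measure the spread between these libraries, which may be technical. The sources used here do not give strain, sex or age. Depth was 651615 to 903443 circRNA reads in the CFA libraries and 573696 to 1176178 in the saline libraries. Positions are given as in the deposited headers, with 1 added to the start, and the sources used here name neither the genome build nor host genes.

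A circRNA forms when the spliceosome joins the end of an exon back to the start of the same or an earlier exon. A circle made of a lone exon has nothing to splice out, and so it meets the rule as well as a circle that kept an intron. Exon positions were not used here, so these kinds cannot be told apart by position. Exons that circularise alone tend to be longer than other exons. A further class, circular intronic RNA, comes from an excised intron that escaped debranching and starts with the letters of the 5′ splice site. The thalamus relays sensory input from the face and jaw to the cortex.

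The back-splice junctions printed here belong to the circles that carry the results. Each has the last 29 bases of the circle in lower case, followed by its first 29 bases in capitals, 5′ to 3′ on the circle's own strand as deposited. The first 2 are the most abundant members, and the 1099 nt circle is an abundant member that is listed at 0 in 1 library. The circles of 703 and 788 nt are lower in CFA. The 346 nt circle is a member that shares its first bases with the spliced circle printed after it. The last 2 begin with letters of a 5′ splice site.
658 nt, chr17:29730437-29731094, minus strand: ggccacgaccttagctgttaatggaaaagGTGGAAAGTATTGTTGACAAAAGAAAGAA
408 nt, chr7:52745151-52745558, minus strand: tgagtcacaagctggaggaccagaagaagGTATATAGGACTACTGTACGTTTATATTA
1099 nt, chr3:94396940-94398038, minus strand: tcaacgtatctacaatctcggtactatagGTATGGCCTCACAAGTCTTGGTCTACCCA
703 nt, chr3:154869699-154870401, plus strand: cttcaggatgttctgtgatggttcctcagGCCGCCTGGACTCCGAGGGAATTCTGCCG
788 nt, chr20:34646376-34647163, minus strand: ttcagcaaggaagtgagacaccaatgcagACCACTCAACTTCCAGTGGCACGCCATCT
346 nt, chr13:83256698-83257043, minus strand: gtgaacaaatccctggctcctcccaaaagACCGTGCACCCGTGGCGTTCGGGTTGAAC
440 nt spliced, chr13:83256334-83257043, minus strand: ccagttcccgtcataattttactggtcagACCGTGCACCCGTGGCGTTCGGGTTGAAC
430 nt, chr1:266071096-266071525, minus strand: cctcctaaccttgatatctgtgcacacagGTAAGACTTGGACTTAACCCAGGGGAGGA
636 nt, chr9:100170006-100170641, minus strand: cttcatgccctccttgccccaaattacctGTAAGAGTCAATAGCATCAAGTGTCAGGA

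Single-segment circles were longer than spliced circles. The median member had 440.5 nt (quartiles 347.25 and 598.5 nt), and the median spliced circle had 383 nt (quartiles 310 and 476 nt). Lengths of 600 nt or more were found in 192 members (24.9%) and in 9.81% of spliced circles. The shortest member had 154 nt and the longest 3215 nt. These are properties of the catalogue, described without a test.

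**Figure D1:**
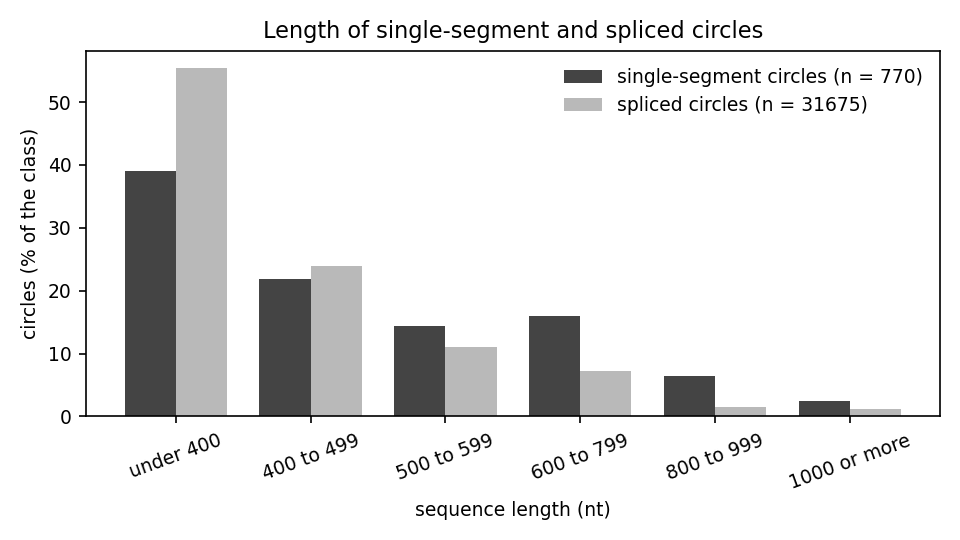
Percent of circles (y axis) in 6 classes of sequence length in nt (x axis) for 770 single-segment circles (dark bars) and 31675 spliced circles (light bars). Of the members 39.0% were under 400 nt, against 55.4% of spliced circles, and 16.0% were 600 to 799 nt, against 7.16%.

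The ends of the members were compared by their letters. Exons often end in AG, and introns start with GT and end in AG, so these letters alone do not tell exon from intron. The last 2 bases were AG in 475 members (61.7%) and in 56.0% of spliced circles, and the first base was G in 50.9% and 44.6%. A GT start was found in 20.4% and 16.8%, and a GT start with an AG end in 110 members (14.3%) and in 9.26% of spliced circles. Median GC content was 50.2% in members, 47.7% in spliced circles and 47.8% in the 16627 spliced circles within the members' length quartiles. Members came from both strands, with 47.8% on the plus strand.

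Many members were also found inside spliced circles. A spliced circle overlapped 434 members (56.4%) on the same strand, and 305 of these lay whole, letter for letter, inside the sequence of such a spliced circle. For 103 further members part of the sequence was shared, in stretches of at least 20 nt. In 26 members an overlapping spliced circle shared no 20 nt stretch, so these segments lay in what that circle had left out. The remaining 336 members (43.6%) had no spliced circle on their strand. The same genomic start as a spliced circle was seen in 257 members, the same end in 244 and both in 102.

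Reading frame and level were described for these 4 kinds of member, without a test. A frame was called open where no stop codon broke it from end to end, with no start codon asked for, in circles of 300 to 600 nt. It was open in 68.0% of the members found whole in spliced circles (178 of that length), above the 52.1% of spliced circles. It was open in 36.0% of the members without a spliced circle and in 26.1% of those that share no sequence (23 of that length). On the reversed strand the shares were 6.74%, 4.20%, 9.65% and 8.70%, in the same order. The members found whole in spliced circles held 61.5% of all member reads and were read in all 6 libraries in 35.7% of cases. Members without a spliced circle held 20.3% of the reads, and 17.3% of them were read in all 6 libraries. Of the partly shared members of that length 44.0% had an open frame, with 2% on the reversed strand. The 103 partly shared members held 16.7% of the reads, were read in all 6 libraries in 28.2% of cases and had the highest median level, 15.2 RPM. The 26 members without shared sequence had a median GC content of 41.4%, and 17 of them were read in 1 library alone.

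Letters of a 5′ splice site at the start of the circle were rare but more frequent in members. The motifs GTAAG and GTGAG were searched at the first bases of each circle, on its own strand. They were found in 15 members (1.95%) and in 109 spliced circles (0.344%). Of those 15, 12 also ended in TAG or CAG, the letters of a 3′ splice site, so that the segment reads like a whole intron. Among spliced circles 28 (0.0884%) had both. Of the 12 members, 8 had no spliced circle on their strand and 3 shared no sequence with one. The letters describe the sequence and show neither a splice site nor how the circle arose.

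Read numbers of these intron-like segments were low. The most read of the 12 was the 430 nt circle of chr1:266071096-266071525 printed above, with 0, 7 and 0 reads in CFA replicates 1 to 3 and 12, 20 and 4 in saline replicates 1 to 3. Among the 15 the most read was the 636 nt circle of chr9:100170006-100170641. It starts with GTAAG, ends in another way, and had 63, 50 and 76 CFA reads and 66, 78 and 68 after saline. It was thus read in every library, while the others were seen in 1 to 4. These are read counts, not scaled to the depth of the library. Members on the plus strand, chr9:100170008-100170567 and chr9:100170008-100170583, overlap the 636 nt circle. Which strand that circle came from was not tested.

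A few members were among the most abundant circRNAs of the thalamus. Levels are in RPM, reads per 1000000 circRNA reads of a library, without a length term. The members held 331170 reads in all, 6.76% of the total, and their 10 most abundant held 39.9% of these. A total of 132 members held 90% of the member reads. Of the 100 most abundant circRNAs 9 were members. The median member reached only 5.83 RPM over the 6 libraries, and the median spliced circle 4.25 RPM.

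The leading member was the 658 nt circle of chr17:29730437-29731094, rank 5 in the whole catalogue. The CFA libraries held 3959, 2942 and 4098 reads of it and the saline libraries 2672, 6489 and 5460, or 5027 ± 868 and 5336 ± 608 RPM (mean ± SD, n = 3 each). The groups overlapped. It stood with 5 spliced circles that share its start or its end, and held 93.4% of the reads at that site.

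Most of the other abundant members dominated their sites as well. The 408 nt circle of chr7:52745151-52745558 had 3605 ± 1301 RPM with CFA and 3480 ± 1570 RPM with saline (SD over 3 libraries each) and held 91.6% of the reads shared with 6 spliced circles. The 551 nt circle of chr6:12179226-12179776 had 3137 ± 918 and 2845 ± 395 RPM and held 94.5%. The 630 nt circle of chr18:75429814-75430443, with no spliced circle on its strand, had 2918 ± 27 and 2980 ± 184 RPM. Relative to its mean its SD was the smallest of the 10. The 922 nt circle of chr14:10419799-10420720 had 2641 ± 201 and 2688 ± 350 RPM, and the 532 nt circle of chr19:25886356-25886887 had 2666 ± 321 and 2501 ± 921 RPM. Both held over 99% of their sites' reads, at 99.3% and 99.5%. The exception was the 719 nt circle of chr8:508994-509712, with 1877 ± 457 and 1883 ± 468 RPM, where 5 spliced circles left it 78.3%. The 664 nt circle of chr14:25672666-25673329 had 1208 ± 234 and 1190 ± 268 RPM, and the 394 nt circle of chr4:168296980-168297373 had 972 ± 140 and 1230 ± 176 RPM. For these 9 members, that of chromosome 17 included, log2 fold changes of CFA against saline ran from -0.39 to 0.09. None passed, the lowest adjusted p being 0.950 in the edgeR quasi-likelihood test (Benjamini-Hochberg).

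Over all sites members were less dominant. Among the 317 overlapped members whose site held at least 100 reads, the member had a median of 27.7% of the site's reads and exceeded every overlapping spliced circle in 138 (43.5%). The member overlapped by most spliced circles, 21, was an 851 nt circle of chr1:204960841-204961691. It had 421 ± 72.7 RPM with CFA and 524 ± 271 RPM with saline (SD over 3 libraries each), where the spliced circles together had 7595 ± 1938 and 8382 ± 1394 RPM.

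Compared within each library, the members that were seen averaged more reads than the spliced circles that were seen. The mean was 165 ± 16.9 RPM per member and 53.8 ± 8.11 RPM per spliced circle (SD over 6 libraries), higher in 6 of 6 libraries. The mean log2 ratio was 1.62, with p = 0.03125 in an exact two-sided sign-flip permutation test over libraries, the smallest that 6 libraries allow, and 0.0938 after Benjamini-Hochberg adjustment over 3 such comparisons. It therefore fails the correction. The percent of circles seen in a library was 53.4 ± 8.68% for members and 55.8 ± 8.15% for spliced circles (exact two-sided sign-flip permutation test, p = 0.15625). Against spliced circles within the members' length quartiles, of which 60.8% were seen, members were seen less often in 6 of 6 libraries (exact two-sided sign-flip permutation test, p = 0.03125, not adjusted). Members of every length entered, those outside these quartiles included, so this comparison was not matched by length.

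**Figure D2:**
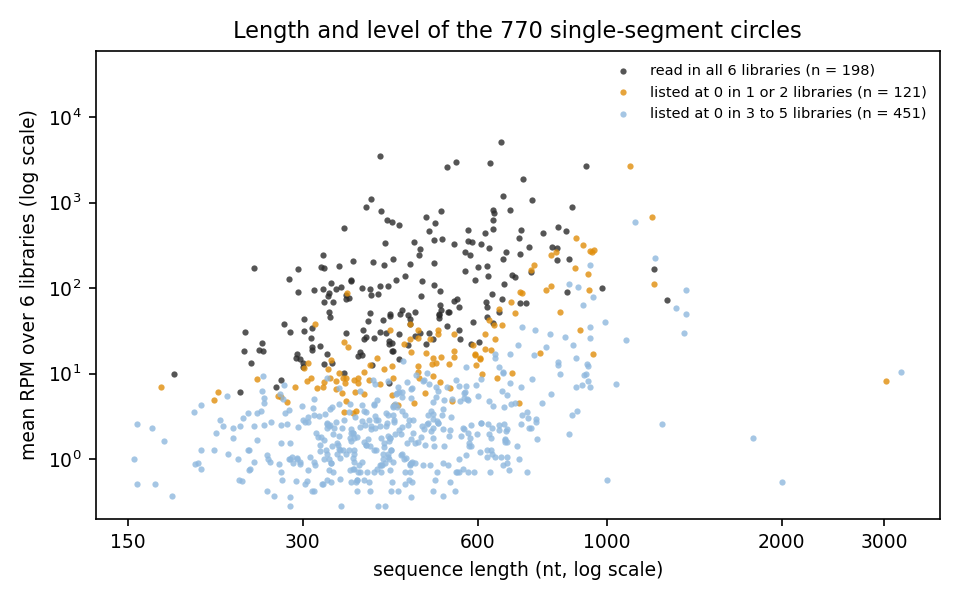
Mean RPM over 6 libraries (y axis, log scale) against sequence length in nt (x axis, log scale) for the 770 single-segment circles, 1 point each, coloured by the number of libraries that list the circle at 0. The 198 members read in all 6 libraries (black) reach low levels at short lengths, while from 600 nt on even abundant members are listed at 0 in 1 library or more (orange and blue).

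Long members were often listed at 0 in a library although other libraries held many reads of them. Values were counted where the median of the 5 other libraries was at least 50 RPM. For members under 600 nt, 2 of 459 such values were 0 (0.436%), and for members of 600 nt or more 55 of 426 (12.9%). By length the percent at 0 was 6.02% at 600 to 799 nt, 22.9% at 800 to 999 nt and 21.2% at 1000 nt or more. Spliced circles of the same 3 length classes gave 0.860%, 0.963% and 0.877%. Over libraries the percent at 0 was 12.7% for members and 0.885% for spliced circles of 600 nt or more, higher for members in 6 of 6 libraries (exact two-sided sign-flip permutation test, p = 0.03125). Under 600 nt the difference had the opposite sign, -0.491 percentage points (p = 0.125, same exact permutation test). Over all lengths it was 6.39 ± 4.05% against 0.915 ± 0.156% (SD over 6 libraries), higher for members in 5 of 6 libraries (exact two-sided sign-flip permutation test, p = 0.0625, 0.0938 after Benjamini-Hochberg adjustment over 3 comparisons). The split at 600 nt was chosen after the data were seen.

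**Figure D3:**
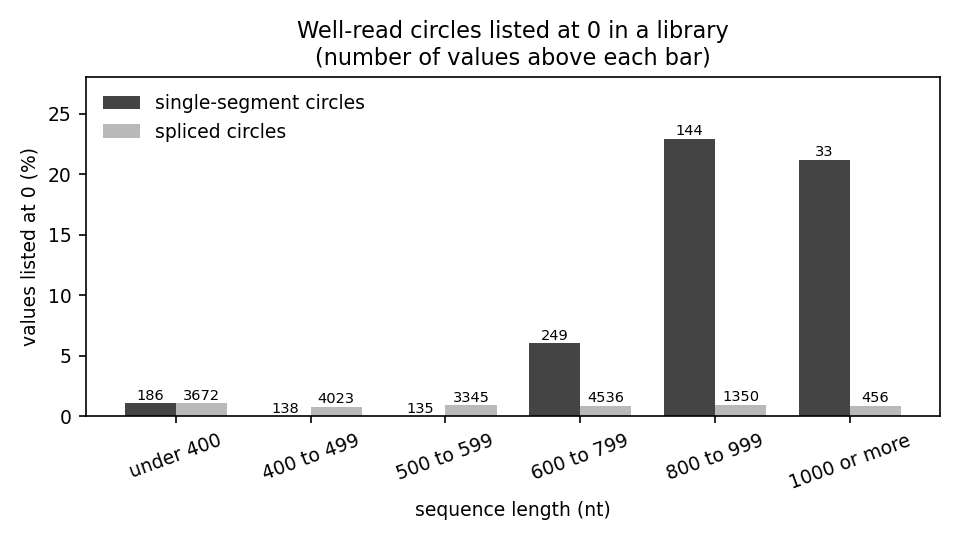
Percent of values listed at 0 (y axis) among values whose 5 other libraries have a median of at least 50 RPM, by sequence length in nt (x axis), for single-segment circles (dark bars) and spliced circles (light bars), with the number of values above each bar. The dark bars stand at 6.02%, 22.9% and 21.2% in the 3 longest classes, where the light bars stay at 0.860% to 0.963%.

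Zeros were counted only beside a high median, and the 3 members described next were picked for their high reads. The 1099 nt circle of chr3:94396940-94398038, one of the 10 most abundant members, is listed at 0 in CFA replicate 1 and had 1695 and 2594 reads in CFA replicates 2 and 3. The saline libraries held 1823, 5479 and 2512 reads of it, so the 5 libraries that list it had at least 2601 RPM. The 1195 nt circle of chr5:76925720-76926914 had 697, 0 and 1017 CFA reads and 0, 1282 and 713 after saline. The 1120 nt circle of chr9:73798311-73799430 had 0, 389 and 1652 against 0, 1292 and 0 reads. In each of these 3 the groups overlapped. Other members had low values too, such as the 695 nt circle of chrX:139736501-139737195, with 13, 65 and 13 reads in the CFA libraries and 42, 114 and 0 in the saline libraries.

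Both groups had such zeros. Among the 160 members with a mean of at least 50 RPM, 126 were read in all 6 libraries and 34 are listed at 0 in 1 or more, 33 of these 34 with 600 nt or more. The zeros fell in CFA libraries alone for 11 members, in saline libraries alone for 6 and in libraries of both groups for 17. Spliced circles overlapping the missing member were read in that library for 33 of the 57 zeros. For 13 they are listed at 0 as well, and for 11 there was no overlapping spliced circle. For 25 of the 57 zeros these had at least 20 RPM where the member was read. In the library without the member they stood at a median of 0.686 of that level (quartiles 0.447 and 0.843), above it for 5 of the 25 and at 0 for 2. For 0 of the 57 zeros did another circle have both ends within 10 nt of the member's ends.

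The percent at 0 moved with the depth of the library. For members of 600 nt or more it was 23.0% in saline replicate 1, the smallest library, 15.3% and 19.4% in CFA replicates 2 and 1, 9.86% in CFA replicate 3, 7.14% in saline replicate 3 and 1.49% in saline replicate 2, the deepest. Across the 6 libraries Pearson's r with depth was -0.97 (exact permutation p = 0.00278) and Spearman's rho was -0.94 (exact permutation p = 0.0167). Adjusted by Benjamini-Hochberg over the 2 relations computed, these permutation p-values were 0.00556 and 0.0334. The class of 600 nt or more was chosen after these zeros were seen, which the adjustment does not cover. Without saline replicates 1 and 2, which lie farthest from the median depth, r over the other 4 libraries was -0.94. For spliced circles of 600 nt or more r was -0.73 (exact permutation p = 0.106). The lowest count above 0 in the table was 2, so a listed 0 may also stand for 1 read.

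**Figure D4:**
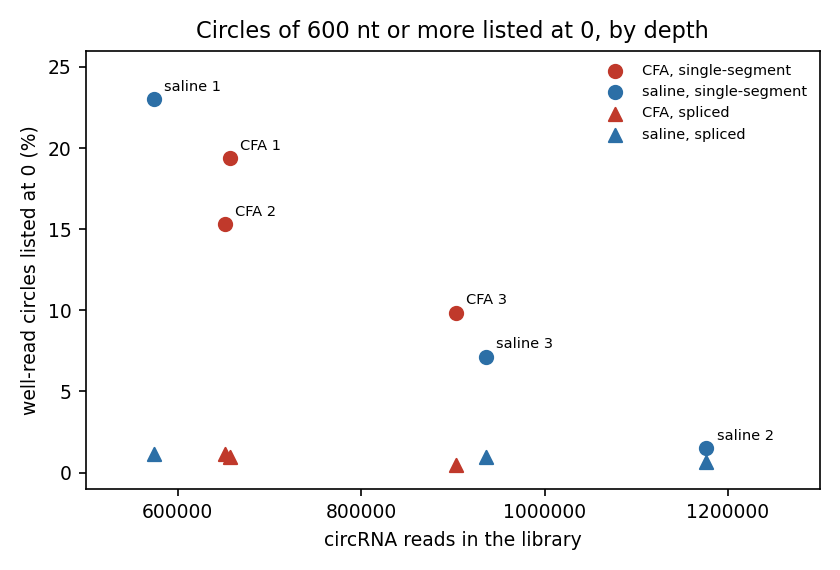
Percent of well-read circles of 600 nt or more that a library lists at 0 (y axis) against the circRNA reads of that library (x axis), for single-segment circles (round points, named) and spliced circles (triangles), CFA in red and saline in blue. The round points run from 23.0% in the smallest library to 1.49% in the deepest, and the triangles stay between 0.470% and 1.14%.

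The comparison of CFA with saline asked which circles differ after lasting joint inflammation. Of the 770 members 560 had at least 10 counts over the 6 libraries and were tested together with all other circRNAs. Of these 7 were lower in CFA and 0 higher at an adjusted p below 0.05 in the edgeR quasi-likelihood test (Benjamini-Hochberg). That is 1.25% of the members tested, where over all 22426 circRNAs tested 0.125% passed, 0.0624% lower and 0.0624% higher. An unadjusted p below 0.05 was reached by 42 members (7.5%) and by 2.68% of all circRNAs tested. Of the 42, 36 were lower (6.43% of members, 1.45% over all) and 6 higher (1.07% of members, 1.23% over all). The groups' RPM did not overlap in 10 tested members that were lower, 1.79% against 3.42% over all. Nor did they overlap in 12 that were higher, 2.14% against 3.21% over all. By this measure members were below the share over all circRNAs in both directions.

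All 7 are listed at 0 in the 3 CFA libraries and are 643 to 935 nt long, and so lie in the range of lengths in which members of either group went missing. The 703 nt circle of chr3:154869699-154870401 had 30, 28 and 49 reads in saline replicates 1 to 3, or 42.8 ± 16.5 RPM (SD, n = 3). The 788 nt circle of chr20:34646376-34647163 had 33, 45 and 25 reads, or 40.8 ± 15.6 RPM. The 643 nt circle of chr16:7151971-7152613 had 32, 17 and 29 reads, or 33.7 ± 20.8 RPM. These 3 were read in every saline library. Their adjusted p was 3.61e-06, 9.27e-06 and 0.000785 in the edgeR quasi-likelihood test (Benjamini-Hochberg).

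The other 4 were missing from saline libraries too. The 935 nt circle of chr4:147948449-147949383 had 0, 93 and 73 reads in saline replicates 1 to 3, and the 887 nt circle of chr8:76903859-76904745 had 30, 45 and 0. The 926 nt circle of chr7:78332667-78333592 had 91 reads and the 824 nt circle of chr2:229690526-229691349 had 89, each in saline replicate 2 alone. That is the deepest library, and so these last 2 differences rest on 1 library. The adjusted p of the 4 was 0.000648, 0.00646, 0.0197 and 0.0246 in the edgeR quasi-likelihood test (Benjamini-Hochberg). In the alternative settings described below that tested them, they passed in 8 of 13, 7 of 13, 4 of 11 and 4 of 11. The chromosome 4 circle did not pass when any 1 CFA library was left out, although each lists it at 0. No fold change is given for the 7, since all CFA values are 0. On simulated counts 107 circRNAs were given a 2-fold change and 92 an 8-fold change. The changes were placed only in circRNAs with a higher mean count than any of the 7. How well changes are found at the counts of the 7 was thus not simulated. The same edgeR fit called 3 of the 2-fold and 77 of the 8-fold changes, and also 41 circRNAs that had not been changed. That limits what the adjusted p-values of the 7 show. Beside 3 and 77 correct calls, the 41 are a larger share of the calls than the threshold on adjusted p is meant to allow. In the data themselves 28 of 22426 circRNAs tested were called, fewer than the 41. The simulation held changed circRNAs and tested 18552, so it does not give the number of false calls among the 28.

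**Figure D5:**
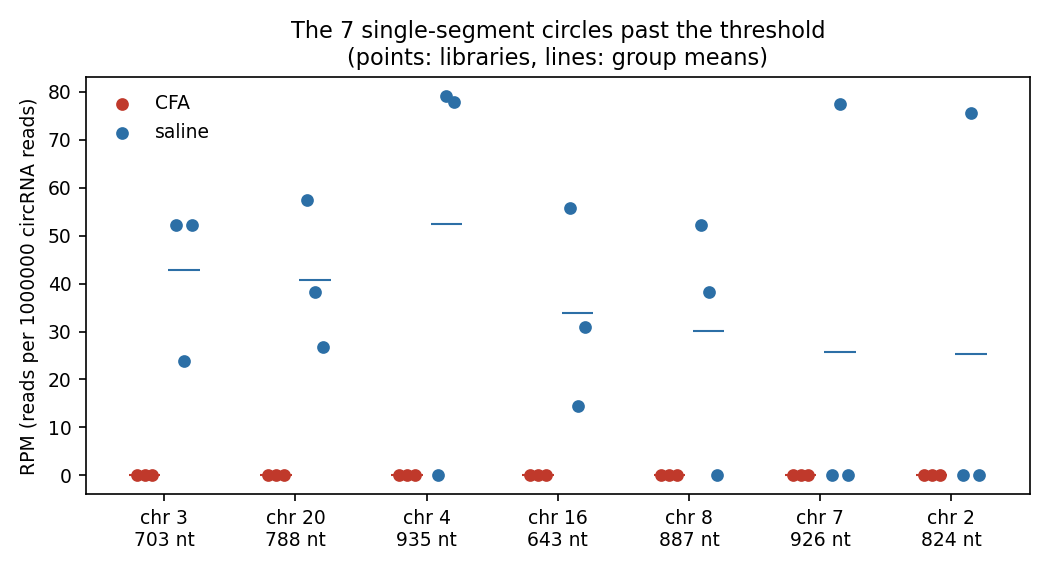
RPM (y axis) of the 7 members past the threshold (x axis, by chromosome and length) in the 3 CFA libraries (red) and the 3 saline libraries (blue), with group means as lines. All red points lie at 0, and in 4 of the 7 members at least 1 blue point does as well.

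At 4 of the 7 sites spliced circles were read in each of the 3 CFA libraries. Around the chromosome 20 member, 4 spliced circles together had 90.7 ± 36.4 RPM with CFA and 105 ± 31.5 RPM with saline (SD over 3 libraries each). Around that of chromosome 16, 12 spliced circles had 135 ± 25.5 and 154 ± 31.6 RPM. Around the chromosome 8 member, 4 had 106 ± 55.6 and 132 ± 9.87 RPM, and around that of chromosome 7, 3 had 28.1 ± 8.74 and 39.4 ± 19.1 RPM. The sites on chromosomes 2 and 4 had spliced circles of few reads. On chromosome 4 these had 5.09 RPM with CFA and 7.72 RPM with saline, and on chromosome 2 they had 0 and 1.13 RPM. The site on chromosome 3 had no spliced circle. At the 4 sites given first the spliced circles of the groups overlapped while the member was listed at 0 in CFA. Zeros of long members also moved with depth, and its part in the 7 calls was not tested. With at least 30 counts 0 members passed in edgeR, although all 7 were tested (25 at an unadjusted p below 0.05), and DESeq2 called 2 of them, on chromosomes 3 and 20. When 1 library was left out the number of calls ran from 5, with saline replicate 1 missing, to 9, with CFA replicate 3 missing.

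Members read in all 6 libraries are described apart. Asking for reads in every library leaves out each member at 0 in a group, the 7 included, so a narrow spread is in part set by that choice. For these 198 the median log2 fold change was -0.04 with quartiles of -0.27 and 0.27, and 154 (77.8%) lay within 0.5 of 0, at a median SE of 0.42. For the 362 tested members listed at 0 in 1 library or more the quartiles were -3.40 and 0.58. Of the 198 members read in all 6 libraries, 49 had 600 nt or more, and 45 of these 49 (91.8%) lay within 0.5. For the 8137 spliced circles read in all 6 libraries the median was -0.02, and 70.6% lay within 0.5. Over the 560 members tested the median was -0.15, with 230 higher and 330 lower, and over all circRNAs tested it was -0.05. These last medians include circles at 0 in a whole group, whose fitted values depend on the prior count.

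Of the members that did not pass, those with the smallest p were again mostly circles missing from a group. Toward lower values they were a 921 nt circle of chr11:35097921-35098841 with 0, 39 and 25 saline reads, a 663 nt circle of chr8:118844296-118844958 with 14, 33 and 10, and an 833 nt circle of chr17:87622185-87623017 with 0, 0 and 56. All 3 are listed at 0 in the CFA libraries. Toward higher values the longest member, 3215 nt at chr19:20282665-20285879, had 41 reads in CFA replicate 1 and 0 elsewhere. A 314 nt circle of chr7:102723273-102723586 had 130 ± 110 RPM with CFA and 59.4 ± 37.7 RPM with saline (SD over 3 libraries each), with overlapping groups. CFA replicate 2 had 255 RPM of it and the other CFA libraries 48.7 and 86.3. Its log2 fold change of 1.02 was 0.15 without CFA replicate 2, 0.66 without saline replicate 1 and 1.62 without saline replicate 3. The adjusted p of these 5 was 0.342 to 0.912 in the edgeR quasi-likelihood test (Benjamini-Hochberg). The 3215 nt circle passed when CFA replicate 2 or CFA replicate 3 was left out, with edgeR quasi-likelihood adjusted p of 0.0206 and 0.0475 (Benjamini-Hochberg).

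The remaining one of these, a 346 nt circle of chr13:83256698-83257043, was read in every library. It had 168, 114 and 276 CFA reads and 87, 126 and 79 after saline, or 245 ± 65.9 and 114 ± 34.2 RPM (SD over 3 libraries each), and each CFA value in RPM was above each saline value. Its log2 fold change of 1.10 ± 0.36 (SE) did not pass, with an adjusted p of 0.761 in the edgeR quasi-likelihood test (Benjamini-Hochberg). A 440 nt spliced circle with the same end, whose junction is printed after it, had 0, 0 and 0 CFA reads and 20, 61 and 56 after saline. On the minus strand this end is where the circle begins. The 440 nt circle passed, with an adjusted p of 4.92e-08 in the edgeR quasi-likelihood test (Benjamini-Hochberg). A 505 nt spliced circle from 83241464 to the same end had 5, 35 and 9 CFA reads and 0, 15 and 9 after saline. The member was thus read in all 6 libraries, and the 440 nt circle in the saline libraries alone. Whether their differences between the groups differ was not tested.

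The share of reads that the members took as a class was lower with CFA, by less than the test could tell from the spread between libraries. They held 6.45 ± 0.141% of circRNA reads with CFA and 6.91 ± 0.487% with saline (SD over 3 libraries each; two-sided exact permutation test, p = 0.2). Without saline replicate 2 the difference of -0.46 percentage points was -0.19. Members under 600 nt held 3.04 ± 0.209% and 3.05 ± 0.108% (exact permutation test, p = 0.9), and those of 600 nt or more 3.41 ± 0.235% and 3.86 ± 0.452% (exact permutation test, p = 0.3). Nearly all of the difference thus lay in the long members, whose share was highest in saline replicate 2 at 4.38%. Of the circRNAs seen in a library, members made up 2.17 ± 0.0507% with CFA and 2.38 ± 0.109% with saline (exact permutation test, p = 0.1). The groups did not overlap. Members of 600 nt or more made up 0.530 ± 0.0225% after CFA and 0.649 ± 0.0698% after saline (exact permutation test, p = 0.1, the smallest that 3 libraries against 3 allow). Members under 600 nt made up 1.64 ± 0.0671% and 1.73 ± 0.157% (exact permutation test, p = 0.4).

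The balance between members and spliced circles at shared sites did not differ detectably. Overlapped members held 41.2 ± 0.722% of the reads at these sites after CFA and 42.0 ± 1.76% with saline (SD over 3 libraries each; two-sided exact permutation test, p = 0.5). Members without a spliced circle held 1.33 ± 0.130% and 1.41 ± 0.123% of all reads (two-sided exact permutation test, p = 0.5). The 4 planned comparisons of shares had Benjamini-Hochberg adjusted permutation p-values of 0.4 to 0.5. Without saline replicate 2 the difference at shared sites was -0.0908 percentage points and without saline replicate 1 it was -1.83, against -0.875 with all libraries. For members without a spliced circle it moved from -0.0803 to between -0.154 (without CFA replicate 1) and -0.0334 (without CFA replicate 2).

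The members held few matches to miR-7, a neuronal microRNA that some circRNAs are known to bind many times. Its mature sequence, from RefSeq (GRCr8), has its seed, bases 2 to 8, in capitals.
rno-miR-7a-5p: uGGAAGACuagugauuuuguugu
The motif GTCTTCC, which pairs with the seed, was searched on the circle's own strand and across the junction. It was found in 36 members (4.68%), in 3.63% of spliced circles and in 3.83% of spliced circles within the members' length quartiles. The highest number in a member was 2, found in a 399 nt circle of chr4:168988738-168989136 and a 403 nt circle of chr6:28698503-28698905. These had 0, 0 and 0 against 0, 11 and 9 reads, and 18, 8 and 10 against 0, 29 and 16 reads, in CFA and saline. Such a match describes the letters and shows no binding.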

How the data were processed

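The authors deposited a table with a raw read count per circRNA and library, per the file headers, on which every test was run. A deposited column named TPM beside them is RPM, since 1 read is worth the same for every circRNA of a library. The RPM printed are counts divided by each library's total in the table. Per the submitters' processing notes the tools included DESeq2 1.20.0, featureCounts 1.5.0-p3, StringTie 1.3.3b and HISAT2 2.0.5. No caller of circRNAs is named in the sources used here. The labels' protocols give poly-T bead purification and random hexamer priming. Sequences and positions came from the deposited sequence file. Of 44 identifiers with 2 sequences, 1 a member, the sequence that makes the deposited junction was kept.

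circRNAs with at least 10 counts over 6 libraries were fitted in edgeR 4.0.16 (R 4.3.3; TMM, robust quasi-likelihood, no covariates). P-values were adjusted by Benjamini-Hochberg over all circRNAs tested, with a threshold of 0.05. On simulated data that held changed circRNAs, this fit also called 41 circRNAs that had not been changed. Each SE is the log2 fold change divided by the square root of F. DESeq2 1.42.0 was an alternative. Percents per library were compared by exact permutation tests in Python 3.11.15. The members, the lists and the tests were chosen with earlier results of these data known. Circles named are those past the threshold, the 10 most abundant, the 3 with the smallest p per direction that did not pass, the longest, the shortest, that with most spliced circles and those with most miR-7 matches. Others were chosen after their values were seen: the circles with zeros beside high values, those that start like an intron and the neighbours of the chromosome 13 member. Groups and replicate numbers come from the sample titles. Same-numbered libraries did not deviate together (r from -0.09 to 0.02), so the numbers were not taken to pair rats. Without molecular identifiers, PCR copies of a molecule count separately.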

Additional observations from a re-analysis of the deposited data

How the results depend on the processing

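With RLE, total counts or no filter the number of members called stayed within 1.5 times the 7 of the edgeR fit, and each of these settings called all 7. It was 0 with at least 30 counts, 0 with filterByExpr and 0 for circles read in every library. The unadjusted edgeR p was below 0.05 for 25, 7 and 5 members in these settings, and that of DESeq2 for 30. Of the 7, filterByExpr kept 3 and the last of these settings 0. The number called was 2 in DESeq2, 11 in the fit that is not robust (4 of the 7 among them) and 14 with the replicate block (4 of the 7). The cause was not tested. Leaving out 1 library gave 5 to 9, of which 3 to 7 were among the 7. The members on chromosomes 3 and 20 held in 12 of 14 alternatives.

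The log2 ratio of reads per circle seen was 1.61 to 1.65 when 1 library was left out, where 5 libraries cannot give p below 0.0625. The percent of circles seen differed by -7.39 points for members of all lengths against spliced circles within the members' length quartiles. With at least 10 counts the difference was -5.59 points. The percent at 0 differed by 5.72 points at 20 RPM, 11.8 at 600 nt or more and -0.491 under 600 nt. The 4 shares kept their direction in all settings run, with the replicate block at exact sign-flip p of 0.25 to 1. Settings that split at 600 nt or ask for reads in all 6 libraries were chosen after seeing the data.

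Signs near 0 changed for 7 named members, none called. For chr7:52745151-52745558 (-0.01) the log2 fold change was 0.03 with RLE and DESeq2, 0.05 with total counts, 0.02 with at least 30 counts, filterByExpr or reads in all 6 libraries, and 0.06 with the replicate block. Leaving out 1 library gave these ranges: chr7:52745151-52745558 (-0.24 to 0.46), chr6:12179226-12179776 (-0.10 to 0.28), chr14:10419799-10420720 (-0.11 to 0.04), chr19:25886356-25886887 (-0.18 to 0.41), chr8:508994-509712 (-0.23 to 0.20), chr14:25672666-25673329 (-0.15 to 0.18) and chr6:28698503-28698905 (-0.40 to 0.84).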

Other observations

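The shortest member, 154 nt at chr3:94397040-94397193 on the plus strand, lies inside the 1099 nt circle of the minus strand that is listed at 0 in CFA replicate 1. It had 4 reads in that library and 0 in each of the other 5. A pair of members on the plus strand of chromosome 12 share the start at 49373409 and end at 49373996 and 49374027. They had 268, 141 and 420 and 335, 204 and 600 reads after CFA, and 173, 525 and 245 and 168, 714 and 234 after saline. An overlapping spliced circle shares no 20 nt stretch with either, and both were read in all 6 libraries, as no other member of that kind was. These circles were chosen after their values were seen.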
